A study of Homo sapiens with 4 samples.

Results

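The genes described here are 10 of the 13 protein-coding genes of human mitochondrial DNA, the 7 that encode subunits of complex I (MT-ND1, MT-ND2, MT-ND3, MT-ND4, MT-ND4L, MT-ND5 and MT-ND6) and the 3 that encode subunits of complex IV (MT-CO1, MT-CO2 and MT-CO3). They were selected by name as the rows of the expression table whose Ensembl identifiers map to these symbols, and all 10 were found among its 50653 genes. The table came from RNA-seq of BT-20 and MDA-MB-468 cells, established human triple-negative breast cancer lines, each stably transduced with a lentiviral pLKO.1-puro vector and selected with puromycin. The vector carried a control shRNA or an shRNA against QPRT, the rate-limiting enzyme of NAD+ generation from tryptophan, and the comparison asked which transcripts differ once QPRT is silenced. Each of the 4 combinations of cell line and shRNA was sequenced as 1 library, so a difference within a line has no replicate check. All 4 groups share the vector and the selection. The culture medium was EMEM for BT-20 and L-15 for MDA-MB-468, so cell line and culture medium cannot be told apart.

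Complex I (NADH dehydrogenase) takes electrons from NADH and pumps protons across the inner mitochondrial membrane, and complex IV (cytochrome c oxidase) passes electrons from cytochrome c to oxygen. The subunits encoded in mitochondrial DNA form the membrane core of both enzymes, while the remaining subunits are encoded in the nucleus and imported. Mitochondrial DNA is transcribed from both strands into long precursors that cover many genes, which are then cut at tRNAs, and the level of each mature mRNA depends on its own stability as well as on transcription.

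All values are FPKM, the fragments on a gene per kilobase of transcript and scaled to the total of the library. The 4 libraries held between 10321999 and 10945931 fragments. QPRT itself was 249 FPKM in BT-20 with control shRNA and 40.5 FPKM with QPRT shRNA, and 117 FPKM and 18.3 FPKM in MDA-MB-468. The breast epithelial markers summed to between 4122 and 6551 FPKM, and of the receptor genes that are low in triple-negative cells PGR was at 0 in all 4 libraries, ESR1 lay between 1.05 and 5.76 FPKM and ERBB2 between 50.7 and 129 FPKM. The 6 gut markers (PIGR, SLC26A3, KRT20, REG1A, FABP1 and CDX2), none of them at 0, summed to 38.8 and 88.0 FPKM in the BT-20 and MDA-MB-468 libraries with control shRNA and to 15.01 and 14.8 FPKM in those with QPRT shRNA. The 5 blood markers summed to 31.1, 14.4, 74.0 and 15.3 FPKM in BT-20 with control and QPRT shRNA and MDA-MB-468 with control and QPRT shRNA, nearly all of it from the plasma cell genes JCHAIN and IGHA1, while PTPRC, CD3E and CD79A each stayed under 1 FPKM. The part of these transcripts in the differences between shRNAs given here was not tested.

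In the GENCODE 29 annotation (GRCh38), 9 of the 10 genes lie on the plus strand of the mitochondrial chromosome, from MT-ND1 (chrM:3307-4262) and MT-ND2 (chrM:4470-5511) through MT-CO1 (chrM:5904-7445), MT-CO2 (chrM:7586-8269), MT-CO3 (chrM:9207-9990), MT-ND3 (chrM:10059-10404), MT-ND4L (chrM:10470-10766) and MT-ND4 (chrM:10760-12137) to MT-ND5 (chrM:12337-14148). MT-ND6 (chrM:14149-14673) lies on the minus strand directly beside the end of MT-ND5. Each gene is a single protein-coding exon without introns. In 5 of the 10 (MT-ND1, MT-ND2, MT-CO3, MT-ND3 and MT-ND4) the annotated gene ends with 1 or 2 bases beyond its last whole codon, and in these the stop codon is completed only by the poly(A) tail. The last 30 bases of 4 genes show both kinds of end, with the leftover bases or the final triplet in capitals.
MT-ND1: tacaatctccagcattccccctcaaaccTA
MT-ND4: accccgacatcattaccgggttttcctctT
MT-CO1: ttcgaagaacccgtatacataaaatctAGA
MT-ND5: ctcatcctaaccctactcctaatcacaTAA

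MT-ND4L and MT-ND4 overlap and are carried by 1 bicistronic mRNA. The 7 bases that the end of MT-ND4L and the start of MT-ND4 have in common are in capitals below, since a fragment crossing them belongs to both genes.
MT-ND4L, last 30 bases: gtacataacctaaacctactccaATGCTAA
MT-ND4, first 30 bases: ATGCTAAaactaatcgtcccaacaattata

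Several of the 10 genes also have near-identical copies in nuclear DNA. Whether fragments that match both were counted on 1 of them or left uncounted is not given in the sources used here. In the share of 100-base windows that differed from an annotated nuclear copy by at most 2 bases, MT-ND2 (74.3%), MT-CO1 (73.9%) and MT-CO2 (67.4%) were highest, followed by MT-CO3 (45.8%) and MT-ND1 (29.6%). The share was 19.6% for MT-ND4, 11.03% for MT-ND6, 5.56% for MT-ND4L, 3.50% for MT-ND5 and 0% for MT-ND3. The closest copy of MT-ND2 is MTND2P28 on chromosome 1 (chr1:629640-630683), 98.4% identical over 1042 bases. Bases 430 to 489 of both are shown because they hold 4 of the differing bases, which are in capitals.
MT-ND2: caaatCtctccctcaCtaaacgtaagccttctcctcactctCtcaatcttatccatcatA
MTND2P28: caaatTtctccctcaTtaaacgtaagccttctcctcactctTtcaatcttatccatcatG

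The 10 genes took 5.83% of all fragments in BT-20 cells with control shRNA (exact Clopper-Pearson 95% interval 5.82 to 5.85%) and 5.71% with QPRT shRNA (5.70 to 5.73%). In MDA-MB-468 cells they took 4.44% (4.43 to 4.45%) and 4.54% (4.52 to 4.55%). The share was thus higher in both BT-20 libraries than in either MDA-MB-468 library, and the shRNA difference had opposite signs in the lines. These intervals, like all below, cover counting error only, since the fragments carry no molecular identifiers and copies made by PCR are counted again. In bulk RNA, fewer mitochondria or mitochondrial genomes per cell and less RNA from each cannot be told apart. By FPKM the members made up 7.85%, 7.74%, 6.05% and 6.25% of the library totals in the order BT-20 control, BT-20 QPRT, MDA-MB-468 control and MDA-MB-468 QPRT, the order kept in every list of 4 values below.

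Levels differed far more between the 10 genes than between libraries (plot of the levels by library). The highest member exceeded the lowest by 157-fold, 120-fold, 139-fold and 170-fold in the 4 libraries. In each of them MT-CO1, MT-CO2 and MT-CO3 held the top 3 places among all genes of the table, in an order that varied, and MT-ND3 came next among the members. MT-ND1, MT-ND2 and MT-ND4 followed in varying order, and MT-ND4L, MT-ND6 and MT-ND5 closed the order in every library. Whether neighbours in this order differ could not be judged against a replicate spread.

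**Figure D1:**
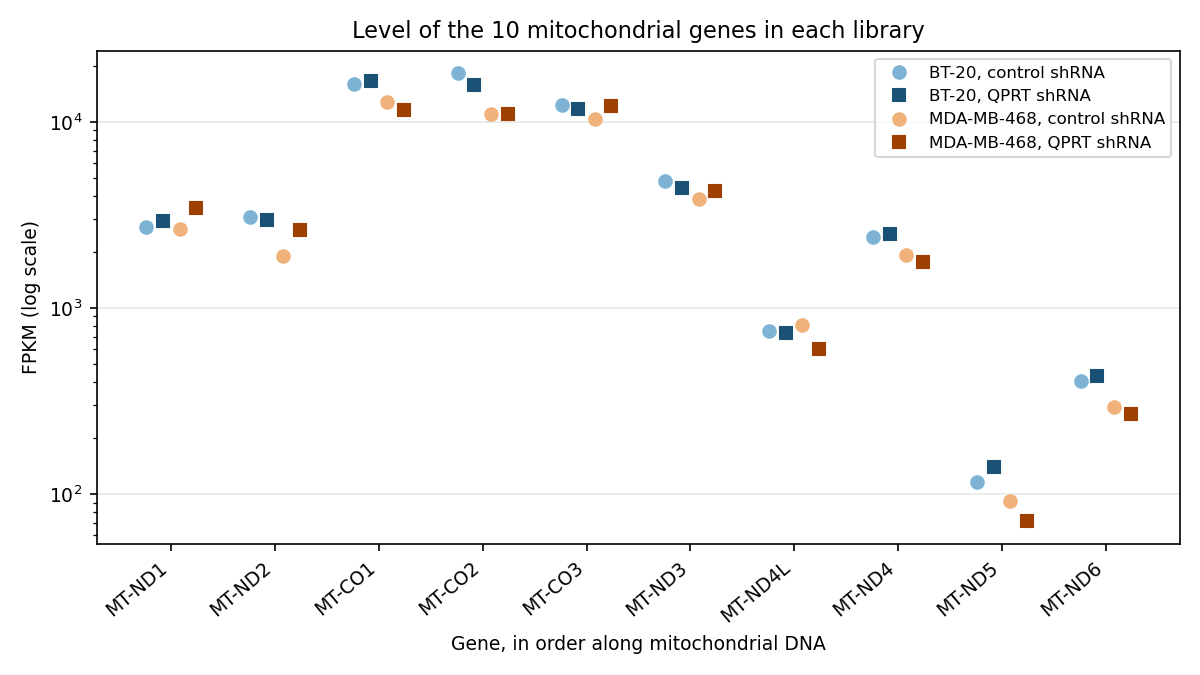
FPKM on a log axis of the 10 genes in order along mitochondrial DNA, 1 point per library (circles control shRNA, squares QPRT shRNA, blue BT-20, orange MDA-MB-468). MT-CO1, MT-CO2 and MT-CO3 lie between 10304 and 18283 FPKM, and MT-ND5 lies lowest, between 71.5 and 139 FPKM.

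MT-CO1, the catalytic subunit of complex IV that holds the site of oxygen reduction, was 16000, 16625, 12811 and 11596 FPKM. Both BT-20 values were above both MDA-MB-468 values. MT-CO2, which receives electrons from cytochrome c, was 18283, 15736, 10981 and 11012 FPKM. The BT-20 values were again the higher ones, and the MDA-MB-468 values were nearly equal.

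MT-CO3, the remaining core subunit of complex IV, was 12402, 11678, 10304 and 12165 FPKM. Here the cell lines overlapped, with the MDA-MB-468 library with QPRT shRNA between the 2 BT-20 values. The 3 genes together stood at 3.27, 3.12, 2.95 and 2.66 times the summed FPKM of the 7 complex I genes, so complex IV transcripts took the smallest part in MDA-MB-468 with QPRT shRNA.

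MT-ND1, a membrane subunit next to the quinone-binding site of complex I, was 2717, 2919, 2665 and 3465 FPKM. The MDA-MB-468 libraries were the lowest and the highest of the 4. MT-ND2, which belongs to the antiporter-like, proton-pumping subunits, was 3074, 2983, 1901 and 2636 FPKM. It was lowest in MDA-MB-468 with control shRNA, and both BT-20 values were above both MDA-MB-468 values.

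MT-ND3, a small membrane subunit, was 4812, 4426, 3863 and 4251 FPKM, with both BT-20 values the highest. MT-ND4, another antiporter-like subunit, was 2415, 2503, 1917 and 1757 FPKM, and the lines again did not overlap. MT-ND4L, which shares its mRNA with MT-ND4, was 754, 733, 812 and 600 FPKM. Its MDA-MB-468 libraries were the highest and the lowest of the 4.

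MT-ND4L stood at 0.31, 0.29, 0.42 and 0.34 of the FPKM of MT-ND4, with which it shares 1 mRNA. How fragments crossing the 7 shared bases were counted is not given in the sources used here, and their part in this ratio was not tested. MT-ND4L is 297 bases long and MT-ND4 1378 bases, and the 2 genes had between 1838 and 2641 and between 24989 and 37630 fragments.

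MT-ND5, the most distal antiporter-like subunit, was 116, 139, 92.3 and 71.5 FPKM. MT-ND6, the only protein-coding gene on the opposite strand, was 408, 433, 293 and 271 FPKM. For both genes the BT-20 values were the higher ones and the QPRT shRNA library of MDA-MB-468 was lowest. Whether counting used strand is not given in the sources used here, so transcripts from the opposite strand of either gene cannot be told apart from its own.

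With QPRT shRNA the 10 genes stayed within 2-fold of the control in both lines, as nearly all genes did. In BT-20 cells 0 of 10 members differed by at least 2-fold, where 1.7% of the 14321 genes tested did. In MDA-MB-468 cells 0 of 10 did, where 1.89% of all genes did. Of 1435 genes outside mitochondrial DNA with a mean of at least 100 FPKM, 15 reached 2-fold within BT-20 and 7 within MDA-MB-468. With shares this low, 0 of 10 is no result about the members. The median difference of log2(FPKM + 1), QPRT shRNA minus control shRNA, was 0.0059 over the members and 0.05 over all genes in BT-20. In MDA-MB-468 it was -0.06 over the members and 0.01 over all genes. In each line 5 members were higher and 5 lower with QPRT shRNA.

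In BT-20 the differences of the complex I genes ranged from -0.12 for MT-ND3 (95% counting interval -0.15 to -0.09) to 0.25 for MT-ND5 (0.17 to 0.34). MT-ND1 differed by 0.10 (0.08 to 0.13), MT-ND6 by 0.09 (0.0033 to 0.17), MT-ND4 by 0.05 (0.03 to 0.07), MT-ND2 by -0.04 (-0.07 to -0.02) and MT-ND4L by -0.04 (-0.12 to 0.04). The sign turned with TPM scaling for MT-ND2 (0.0043) and MT-ND4L (0.0078), and for MT-ND4 (-0.06) once the trend on GC content and length was removed. Of the complex IV genes MT-CO2 was lower with QPRT shRNA by 13.9%, a difference of -0.22 (-0.23 to -0.21), MT-CO3 differed by -0.09 (-0.10 to -0.07) and MT-CO1 by 0.06 (0.05 to 0.06). The sign for MT-CO1 turned with the GC content and length trend removed (-0.05).

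In MDA-MB-468 the differences were larger and spanned -0.44 to 0.47. MT-ND2 was 38.7% higher with QPRT shRNA, a difference of 0.47 (95% counting interval 0.45 to 0.50), and MT-ND1 was 30.03% higher, a difference of 0.38 (0.36 to 0.40). At the other end MT-ND4L was 26.2% lower, a difference of -0.44 (-0.52 to -0.35), and MT-ND5 was 22.5% lower, a difference of -0.36 (-0.47 to -0.27). Members of 1 complex, read from the same strand, thus stood at both ends of the range.

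Between these, MT-CO3 differed by 0.24 (0.23 to 0.25), MT-ND3 by 0.14 (0.11 to 0.17), MT-CO1 by -0.14 (-0.15 to -0.13), MT-ND4 by -0.13 (-0.15 to -0.10) and MT-ND6 by -0.11 (-0.22 to -0.01). MT-CO2 differed by 0.0040 (-0.01 to 0.02), within counting error, and its sign turned with upper quartile scaling (-0.04) and TPM scaling (-0.02). The counting interval excluded 0 for 9 of 10 members in each line. How far 2 libraries of the same cells would differ was not measured.

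Set in order along mitochondrial DNA, the members with higher values in the MDA-MB-468 library with QPRT shRNA lay before those with lower values, with MT-CO1 as the exception. Spearman's rho between the difference and the order of the gene was -0.62 in MDA-MB-468 and 0.24 in BT-20 over the 10 genes, given as a description, since the genes share libraries and transcripts. Against GC content the rho was 0.10 in MDA-MB-468 and 0.21 in BT-20. Within MDA-MB-468, MT-ND4L stood at 0.30 of MT-ND1 with control shRNA and at 0.17 with QPRT shRNA, and MT-ND5 at 0.035 and 0.021. In BT-20, MT-ND4L stood at 0.28 and 0.25 of MT-ND1 and MT-ND5 at 0.043 and 0.048, so the ratio of MT-ND5 was the higher one with QPRT shRNA there.

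**Figure D2:**
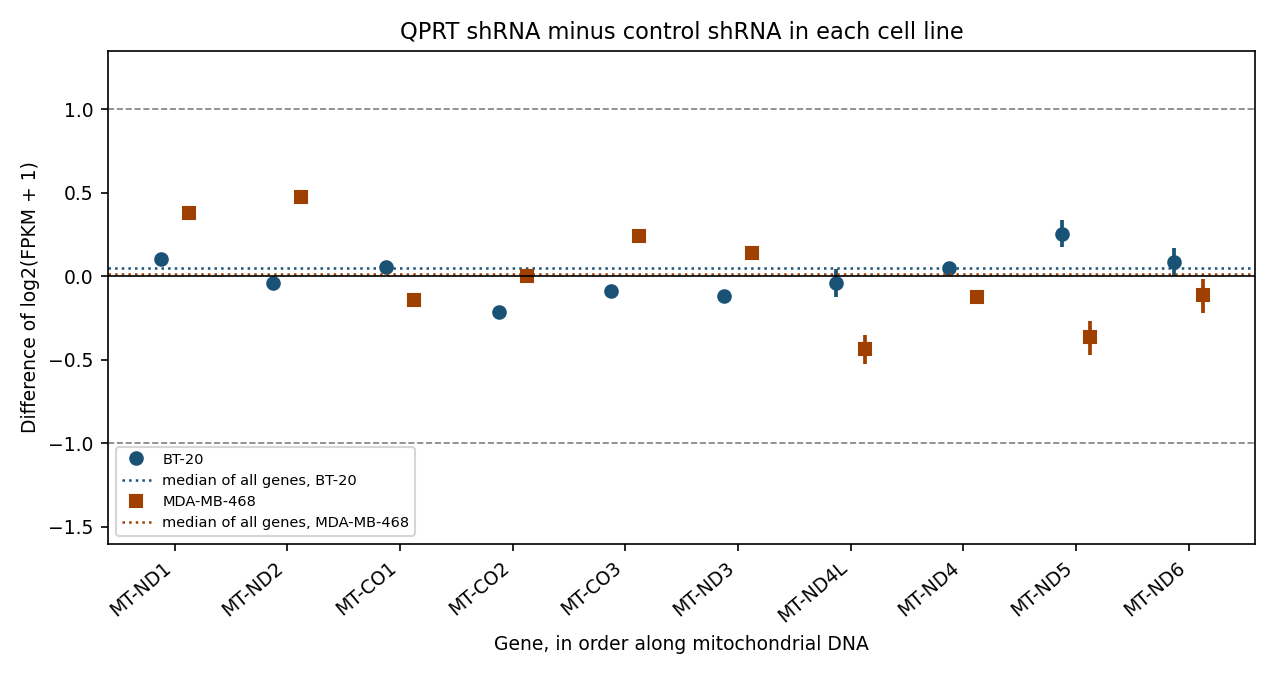
Difference of log2(FPKM + 1), library with QPRT shRNA minus library with control shRNA, for the 10 genes in order along mitochondrial DNA, in BT-20 (blue circles) and MDA-MB-468 (orange squares). Vertical bars are 95% counting intervals, dotted lines the medians of all genes and dashed lines 2-fold. All points lie inside 2-fold, and MDA-MB-468 runs from 0.47 for MT-ND2 to -0.44 for MT-ND4L.

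A limma fit of log2(FPKM + 1) over both lines, with the lines in place of replicates and 1 residual degree of freedom per gene, called 0 of 10 members for the shRNA, against 0.628% of all genes. Also at an unadjusted p under 0.05, 0 members passed, where 687 of 14321 genes did. In limma-voom on the recovered fragments 0 members had an adjusted p under 0.05. The shRNA difference over both lines ranged from -0.24 for MT-ND4L to 0.24 for MT-ND1, with standard errors of 0.19 to 0.20. Here and in all limma results below, eBayes drew the standard errors mainly from the spread of all genes of similar level. They and their p-values therefore do not measure the spread of the single gene between replicates. The lowest unadjusted p was 0.199, for MT-ND1, and the adjusted p-values of all members were 0.9999. For MT-ND3 (0.0086) and MT-ND6 (-0.01) the sign of the limma difference turned under at least 1 alternative.

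Between the cell lines, most members were lower in MDA-MB-468. With control shRNA 9 of 10 members were lower there, where 44.5% of all genes were. The median difference was -0.33, MDA-MB-468 minus BT-20, where the median of all genes was 0.12. With QPRT shRNA 8 of 10 were lower, where 46.8% of all genes were, with a median of -0.40 beside 0.07 for all genes. Among the 1435 abundant genes outside mitochondrial DNA, those with a mean of at least 100 FPKM, the medians were 0.0081 and 0.05. Lower values with both shRNAs were found for 7 of 10 members, and for 37.0% of all genes.

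The differences stayed small beside those of many nuclear genes. With control shRNA 0 of 10 members reached 2-fold, where 31.6% of all genes did, and with QPRT shRNA 0 of 10 did, where 31.4% did. The comparisons with control shRNA and with QPRT shRNA use different libraries. MT-CO2 was 39.9% lower with control shRNA, a difference of -0.74 (95% counting interval -0.75 to -0.72), and 30.02% lower with QPRT shRNA, a difference of -0.51 (-0.53 to -0.50). MT-CO1 was lower by 19.9% and by 30.2%.

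MT-ND5 was lower by 20.6% with control shRNA and by 48.5% with QPRT shRNA, the latter a difference of -0.95 (-1.05 to -0.86), just inside 2-fold. MT-ND6 differed by -0.47 and -0.68 and MT-ND4 by -0.33 and -0.51. These 3 members lie last on mitochondrial DNA, but 7 of 10 members were lower with both shRNAs, early ones such as MT-CO1 among them. Spearman's rho between the line difference and the order of the gene was -0.10 for the control shRNA libraries. For the QPRT shRNA libraries it was -0.60, again given as a description. MT-ND2 was lower by 38.2% with control shRNA and by 11.6% with QPRT shRNA, differences of -0.69 and -0.18. MT-ND3 followed the same pattern, at -0.32 and -0.06.

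For the remaining 3 members the sign differed between shRNAs. MT-ND1 differed by -0.03 with control shRNA and by 0.25 with QPRT shRNA, MT-CO3 by -0.27 and 0.06 and MT-ND4L by 0.11 and -0.29. The small values among these turned sign with another scaling, that of MT-ND1 with control shRNA under TPM (0.01), that of MT-CO3 with QPRT shRNA under upper quartile scaling (-0.0041) and with the GC content and length trend removed (-0.15), and that of MT-ND4L with control shRNA under the latter (-0.0033).

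**Figure D3:**
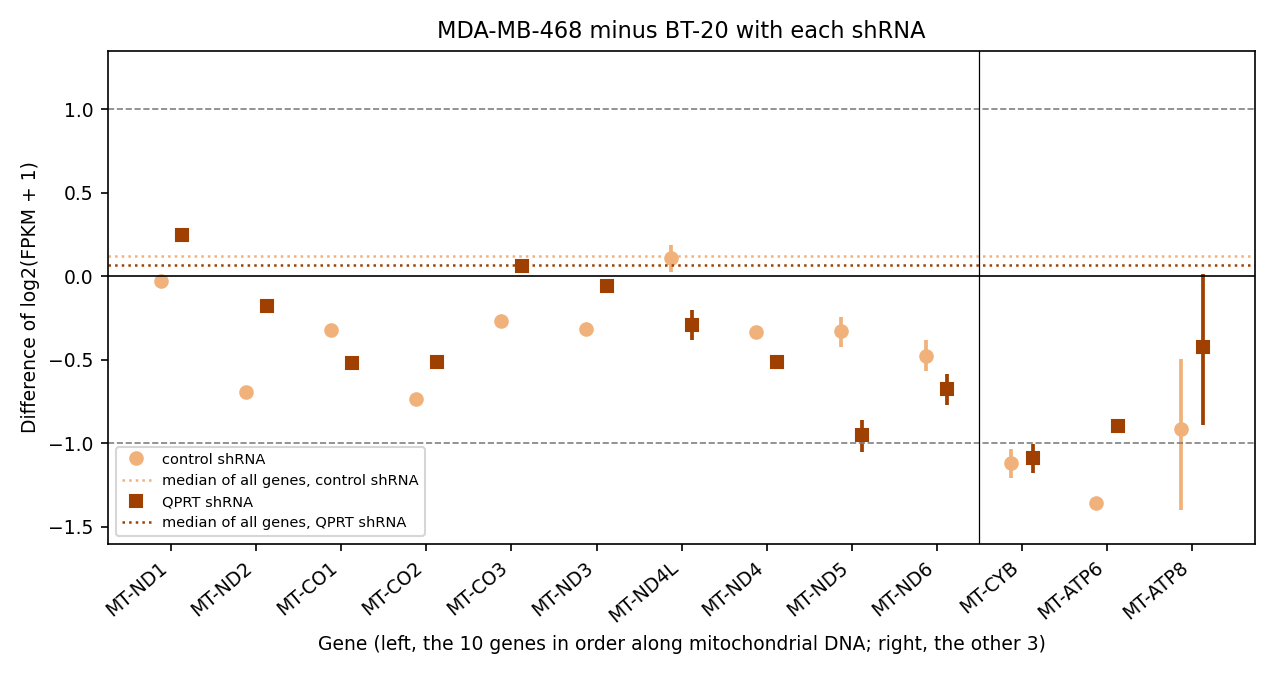
Difference of log2(FPKM + 1), MDA-MB-468 minus BT-20, with control shRNA (light circles) and QPRT shRNA (dark squares) for the 10 genes and, right of the vertical line, the other 3 protein-coding genes of mitochondrial DNA. Vertical bars are 95% counting intervals, dotted lines the medians of all genes and dashed lines 2-fold. MT-CO2, MT-ND5 and MT-ND6 lie below 0 with both shRNAs, and MT-CYB lies below all 10 members with both.

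Over both shRNAs, limma called 5 of 10 members as differing between the lines at an adjusted p under 0.05, against 55.1% of all genes. This share, taken in either direction, is close to that of all genes and is no result about the members. All 5 were lower in MDA-MB-468, where 3496 of all 14321 genes were called lower and 4397 higher. Whether the members were called lower more often than other genes was not tested. The 2 shRNAs stood in place of replicates, and the standard errors again came mainly from the spread over all genes. For MT-ND5 the line differences with control and QPRT shRNA were -0.33 and -0.95. MT-ND5 was lower by 0.64 on the log2 scale (SE 0.20, limma adjusted p = 0.0034), MT-CO2 by 0.63 (SE 0.19, adjusted p = 0.0031) and MT-ND6 by 0.58 (SE 0.19, adjusted p = 0.0055). MT-ND2 was lower by 0.44 (SE 0.19, limma adjusted p = 0.038) and MT-ND4 by 0.42 (SE 0.19, adjusted p = 0.044).

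MT-CO1 missed the threshold at a difference of -0.42 (limma adjusted p = 0.054), and MT-ND3 (-0.19), MT-CO3 (-0.10), MT-ND4L (-0.09) and MT-ND1 (0.11, which turned sign under an alternative) had adjusted p-values between 0.41 and 0.70. Over the 12 settings tried, MT-CO2, MT-ND5 and MT-ND6 were called in 11, MT-ND4 in 8, MT-ND2 in 7 and MT-CO1 in 6.

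The other 3 protein-coding genes of mitochondrial DNA were also lower in MDA-MB-468. MT-CYB, the only mitochondrially encoded subunit of complex III, was 285, 277, 131 and 130 FPKM, a limma difference of -1.10 (SE 0.19, adjusted p = 6.4e-08). MT-ATP6, part of the proton channel of ATP synthase, was 9586, 8200, 3743 and 4413 FPKM, a difference of -1.13 (SE 0.19, limma adjusted p = 2.0e-08). MT-ATP8, whose gene overlaps that of MT-ATP6, was 55.0, 45.6, 28.7 and 33.7 FPKM, a difference of -0.67 (SE 0.22, adjusted p = 0.0044), close to the -0.64 of MT-ND5. MT-CYB and MT-ATP6 thus exceeded 2-fold in the limma difference over both shRNAs, which none of the 10 members did. With QPRT shRNA alone MT-ATP6 differed by -0.89, inside 2-fold, beside -0.95 for MT-ND5. A test of MT-CYB and MT-ATP6 against the members was not made.

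Of the annotated nuclear copies of the members, 3 had a mean of at least 1 FPKM. MTND2P28 held 1001, 1317, 698 and 845 fragments, 2.94%, 3.88%, 3.22% and 2.98% of those on MT-ND2, and was higher with QPRT shRNA by 0.35 in BT-20 and by 0.36 in MDA-MB-468. MT-ND2 itself differed by -0.04 and 0.47. MTCO1P12 held 287, 243, 189 and 158 fragments, between 0.09% and 0.11% of those on MT-CO1, and MTND1P23 between 3 and 10. With the copies added to their genes, all 40 differences of the members moved by less than the counting interval. The fragments added were at most 3.88% of those on a member, so little movement was possible. Fragments left uncounted because they match both would not be seen this way.

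The nuclear genes that transcribe mitochondrial DNA, process its RNA or complete the complexes were examined from 8 lists (plot of the lists). On the log2(FPKM + 1) scale, 0 genes of any list reached 2-fold between shRNAs within either line, and limma called 0 of the list genes for the shRNA. This scale understates differences of low genes. By FPKM alone, control to QPRT shRNA, NDUFV2 in BT-20 (0.90 to 2.32) and COX20 in MDA-MB-468 (1.70 to 0.85) passed 2-fold. Both were named after their values were seen. Without adjustment 3 of the 91 list genes, which include the untested PPARGC1A, had a limma p under 0.05, where 687 of 14321 genes did. The count is thus no result about the lists. The 3 were TWNK, FASTKD2 and COX7C, all higher with QPRT shRNA and named after their values were seen. COX7C, a small subunit of complex IV, came nearest to a call at 0.67 (SE 0.19, limma adjusted p = 0.064). Between the lines, 4397 of all genes were higher in MDA-MB-468 and 3496 lower. At an adjusted p under 0.05 in limma, 4 of 16 genes of mitochondrial DNA transcription and replication were higher in MDA-MB-468 and 1 was lower, with a median difference of 0.08 beside 0.10 for all genes. POLRMT, the mitochondrial RNA polymerase, was 53.1, 54.3, 45.4 and 59.6 FPKM (difference between lines -0.04, adjusted p = 0.87). TFAM, which packages mitochondrial DNA and starts its transcription, was 24.6, 28.8, 45.6 and 42.0 FPKM and was higher in MDA-MB-468 by 0.70 (limma adjusted p = 0.0035), and it was singled out after its values were seen.

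SSBP1, the single-stranded DNA binding protein of replication, differed between the lines by -0.27 (limma adjusted p = 0.24) and POLG, the replicative polymerase, by -0.38 (adjusted p = 0.11). Of the 17 genes of mitochondrial RNA processing and decay 5 were higher and 5 lower in MDA-MB-468, with a median of -0.03. LRPPRC, which stabilises mitochondrial mRNAs, was 76.4, 110, 158 and 137 FPKM and was higher in MDA-MB-468 by 0.68 (limma adjusted p = 0.0017). TBRG4, a FASTK family RNA-binding protein, was higher there by 0.45 (adjusted p = 0.044), and HSD17B10, a subunit of mitochondrial RNase P, differed by -0.16 (adjusted p = 0.49).

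Of 5 tested regulators of mitochondrial biogenesis 4 were higher in MDA-MB-468 and 0 lower, with a median of 0.64. Counts here are read beside the 55.1% of all 14321 genes called, 4397 higher and 3496 lower. Medians are read beside 0.10 for all genes. PPRC1 was higher by 1.08 (limma adjusted p = 2.2e-05), GABPA by 0.93 (adjusted p = 5.1e-04) and ESRRA by 0.51 (adjusted p = 0.025). PPARGC1A, with a mean of 0.45 FPKM, was below the minimum for testing. Its values, 0.58, 0.82, 0.19 and 0.20 FPKM, went the other way, with lower ones in MDA-MB-468. Of 10 nuclear genes for abundant mitochondrial proteins, used as a rough gauge of mitochondrial content, 3 were higher and 1 lower, with a median of 0.20. Among these the chaperone HSPA9 was higher by 0.78 (limma adjusted p = 1.3e-04), the outer membrane channel VDAC1 differed by 0.33 (adjusted p = 0.13) and the chaperone HSPD1 by -0.08 (adjusted p = 0.73).

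The nuclear partners of the members fell into 4 of these lists. Their counts are read beside the 55.1% of all 14321 genes called, 4397 higher and 3496 lower, and their medians beside 0.10 for all genes. Of 7 nuclear core subunits of complex I 3 were higher in MDA-MB-468 and 0 lower, with a median of 0.26. NDUFV1, which binds NADH, was higher by 1.23 (limma adjusted p = 7.2e-10) and NDUFS8, an iron-sulfur subunit, by 0.70 (adjusted p = 9.3e-04). Of 10 nuclear subunits of complex IV 5 were higher and 0 lower, with a median of 0.31. COX7A2 was higher by 0.80 (limma adjusted p = 8.8e-05), COX6B1 differed by 0.20 (adjusted p = 0.38) and COX4I1 by 0.04 (adjusted p = 0.87).

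Among 13 assembly factors of complex I 7 were higher and 1 lower in MDA-MB-468, with a median of 0.48. NDUFAF8 was higher by 0.48 (limma adjusted p = 0.036), TMEM126B differed by 0.17 (adjusted p = 0.50) and TIMMDC1 by -0.19 (adjusted p = 0.43). Of 12 tested assembly and translation factors of complex IV 0 were higher and 2 lower, with a median of -0.16. COA3, which acts early on newly made MT-CO1 protein, was lower by 0.49 on the log2 scale (limma adjusted p = 0.040), SURF1 differed by -0.40 (adjusted p = 0.097) and the copper chaperone COX17 by -0.20 (adjusted p = 0.41).

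**Figure D4:**
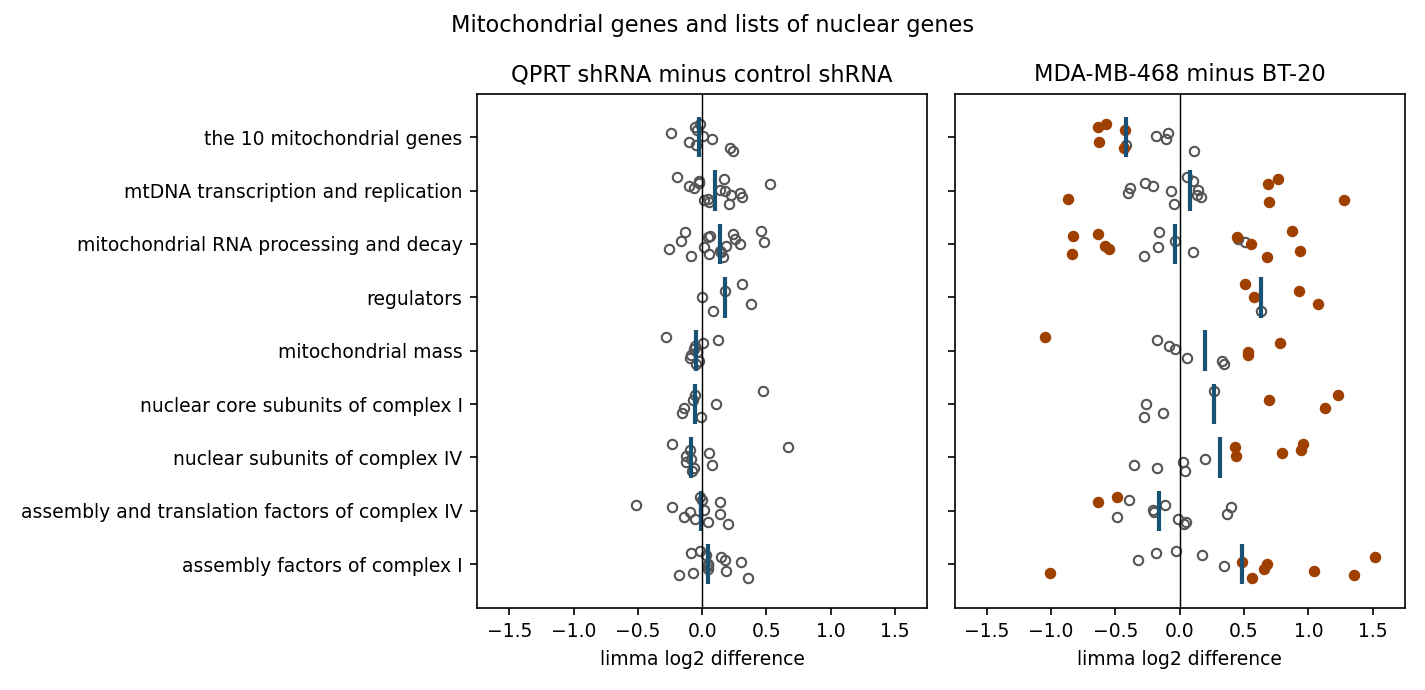
limma log2 differences over all 4 libraries for the 10 mitochondrial genes (top row) and 8 lists of nuclear genes, left for the shRNA and right for the cell line, 1 circle per gene. Filled circles had an adjusted p under 0.05 and blue bars mark the median of each row. On the left no circle is filled, and on the right the filled circles of the top row all lie below 0 while the regulators lie above it.

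The 5 genes outside mitochondrial DNA whose 4 values ran most like the mean of the members, by Euclidean distance of centred log2(FPKM + 1) over 4 libraries among 10410 candidates, were ALOX12P2, SENP1, MICALL1, OCIAD1 and PACS2, at distances of 0.02 to 0.05. The mean profile of the members was 0.17, 0.17, -0.17 and -0.17. Single members lay farther from it than these genes, from 0.13 for MT-ND4 to 0.53 for MT-ND1, as the mean smooths out how the members differ.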

How the data were processed

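The authors deposited 1 table of FPKM values per gene and library, made from trimmed NovaSeq reads of TruSeq libraries. The submitters' processing notes name TopHat2 2.0.12 and HTSeq 0.6.1, beside FastQC, MultiQC and CASAVA. The genome build, annotation and strand setting are not given in the sources used here. Groups came from the sample labels, which name no replicate cultures.

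Of 50653 genes, 14321 with a mean of at least 1 FPKM were tested. Differences are of log2(FPKM + 1), which understates those of low genes, and a gene was called at 2-fold or more. limma 3.58.1 (R 4.3.3; line plus shRNA, eBayes with trend, Benjamini-Hochberg adjustment) was fitted over all 4 libraries. The DESeq2 test of the authors needs counts and was not run. On simulated data of the shRNA comparison (14321 genes) limma recovered 100% of 200 genes changed 4-fold, with 7.83% false calls. The simulation held no line difference, a spread set by level alone and no changes among low genes. It therefore gives neither the recovery of differences as small as those of the members nor the error rate in the real data. FPKM times the GENCODE 29 transcript length gave whole fragments, within 0.02, for 97.5% to 97.8% of values of single-transcript genes. Over all genes with a known length the share was 85.3% to 85.4%. Values of all these genes were rounded to whole fragments, which gave exact 95% intervals and limma-voom. Nuclear copies were aligned with blastn 2.17.0. Python 3.11.15 was used.

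Named were all members, the other protein-coding genes of mitochondrial DNA, nuclear copies with a mean of at least 1 FPKM, genes of the lists past 2-fold within a line or among the 3 most abundant, and the 5 nearest profiles. The members and lists were chosen with earlier results of these data known. Ribosomal RNA and tRNA genes of mitochondrial DNA were not analysed here. The values of 1 list gene that this rule names are not reported here. Alternatives were another pseudocount, scalings, filters, thresholds, a GC content and length correction (99.4% of genes had both values), other limma settings and, added after the data were seen, nuclear copies summed with their genes.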

Additional observations from a re-analysis of the deposited data

Results flagged for a closer look

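For 8 of the 10 members the difference between QPRT shRNA and control shRNA had opposite signs in the 2 cell lines, as it did for 54.6% of all genes, and with 1 library per group this difference between lines was not tested. On the log2(FPKM + 1) scale, the shRNA difference in MDA-MB-468 minus that in BT-20 was 0.52 for MT-ND2, 0.33 for MT-CO3, 0.26 for MT-ND3 and 0.22 for MT-CO2, where the MDA-MB-468 difference was the higher one. It was -0.62 for MT-ND5, -0.20 for MT-CO1, -0.20 for MT-ND6 and -0.18 for MT-ND4. For MT-ND2, MT-CO1, MT-CO2 and MT-ND4, 1 of the 2 signs turned under another scaling or correction.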

How the results depend on the processing

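The median difference of the members was 0.053 in BT-20 under TPM scaling and -0.060 with the GC content and length trend removed, beside 0.0059. With MDA-MB-468 it was -0.10 under upper quartile scaling, -0.076 under TPM scaling and -0.0081 without the trend, beside -0.055. Between the lines with control shRNA it was -0.34, -0.28 and -0.57 under the same 3 settings and -0.35 with the mitochondrial genes left out of the total, and with QPRT shRNA -0.46, -0.43, -0.45 and -0.42. At 1.5-fold, 2 members differed between the lines with each shRNA, and under upper quartile scaling 1 (MT-ND5) passed 2-fold with QPRT shRNA. Of the 40 single differences, 0 moved beyond the counting interval with a pseudocount of 0.1 or with nuclear copies added, 9 without the mitochondrial genes in the total, 17 under upper quartile scaling, 23 under TPM and 29 without the trend. limma called 3 members for the line with a pseudocount of 0.1, with a mean of at least 5 FPKM or without the eBayes trend, and 0 without a filter. No member was called for the shRNA in any of the 12 settings. Of all genes, limma called 90 for the shRNA, 45 with a mean of at least 5 FPKM, 2 without the GC trend and 0 without a filter or without the line term. At 2-fold, 244 of all genes were counted in BT-20, and 271 in the other line. These were 792 and 756 with a pseudocount of 0.1, 370 and 417 without a filter, 103 and 96 from 5 FPKM, and 1286 and 1313 at 1.5-fold. Between the lines they were 4519 and 4491, 2984 and 2923 from 5 FPKM, and 7754 and 7592 at 1.5-fold. MT-ND5, MT-ND6 and MT-ND4L, the members with the fewest fragments (1338 to 2746), had the widest counting intervals.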
